A study of Mus musculus with 8 samples.

Results

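Transcripts of 9 genes of glycogen metabolism were followed in RNA from crude heart mitochondria of Tefm knockout and control mice. The genes are Stbd1, Gys1, Gyg, Gbe1, Pygm, Pygb, Gaa, Phka1 and Ugp2, chosen by name from the 49584 features that were counted. They were picked with the difference between knockouts and controls already known, so that difference is described for them and not tested. All 9 had enough counts to be among the 17891 features tested. The knockout mice, L/L with cre, carried Tefm alleles with a loxP-flanked exon that cre, driven by the muscle creatine kinase promoter (creatinine in the labels), had excised, and are labelled Tefm -/-. The controls, L/L without cre in their titles, are labelled Tefm +/+. TEFM helps the polymerase of mitochondria to elongate its transcripts. The promoter works in muscle cells, of the heart and of the skeleton, so other cells of the heart would keep the gene. There were 4 animals in each group, whose age, sex and strain the sources used here do not give.

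In GRCm38 with GENCODE vM21 annotation, Stbd1 (ENSMUSG00000047963.7) spans 92603041 to 92606579 on the plus strand of chromosome 5. Gys1 lies on chromosome 7 (45434844 to 45456619, plus), Gyg on chromosome 3 (20122084 to 20155317, minus), Gbe1 on chromosome 16 (70313949 to 70569716, plus) and Ugp2 on chromosome 11 (21321138 to 21371201, minus). Pygm lies on chromosome 19 (6384399 to 6398459, plus), Pygb on chromosome 2 (150786735 to 150831758, plus), Phka1 on chromosome X (102513975 to 102644246, minus) and Gaa on chromosome 11 (119267887 to 119285454, plus).

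Glycogen is the branched glucose store of the cytosol, and heart muscle draws on it when fuel or oxygen runs short. UDP-glucose is made by the enzyme of Ugp2, glycogenin (Gyg) primes a new particle, glycogen synthase (Gys1) lengthens its chains and the branching enzyme (Gbe1) adds branches. Phosphorylase, in a muscle form (Pygm) and a brain form (Pygb) that are both made in heart, releases glucose 1-phosphate after phosphorylase kinase, of which Phka1 encodes the muscle alpha subunit, has activated it. A separate route runs through the lysosome, where acid alpha-glucosidase (Gaa) digests glycogen. Its human deficiency is Pompe disease, which affects the heart. Stbd1 encodes a membrane protein that binds glycogen through a starch-binding domain and is proposed to bring it to the lysosome.

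The libraries held 21108165 to 25393933 counts in knockouts and 26268804 to 27403415 in controls. Features of mitochondrial DNA (mtDNA) took 38.7% to 59.3% of the counts in knockouts and 72.3% to 74.0% in controls, so knockout libraries sampled nuclear genes more deeply. Knockout replicate 1 stood apart at 59.3%, and it differed from the other knockouts by a chi-square per degree of freedom of 81.6 to 125, against 7.82 to 14.2 among the other knockouts and 2.42 to 3.70 among controls. This chi-square used raw counts of all features, those of mtDNA included, so it is not separate from the mtDNA share. Tefm itself had 166, 233, 230 and 245 counts in knockouts and 110, 117, 106 and 144 in controls (log2 fold change 0.14, SE 0.11). This count pools all exons of the gene and the sources used here do not say which exon was flanked, so it does not check the deletion. Cardiomyocyte markers were abundant in every library. Levels are given as CPM, counts scaled to a common library size, on TMM scaling, which sets the bulk of nuclear genes equal between libraries. Scaled by library totals alone, the log2 fold changes shifted upwards by a median of 0.99, so every change below is relative to other nuclear RNA. In RNA of this kind, fewer cells of a type, less RNA per cell and a different amount of RNA that comes along with the mitochondria cannot be told apart.

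Stbd1 and the synthesis genes were higher in the knockout libraries. The breakdown genes differed less, with log2 fold changes from -0.28 (Pygm, below all controls in every knockout) to 0.17 (Gaa). Of the 9 genes, 5 were higher and 1 was lower at an adjusted p under 0.05 in edgeR's quasi-likelihood test, and 3 did not pass. Over all features tested 50.0% passed in this comparison, 26.1% higher and 23.9% lower, and the genes were chosen from the same contrast, so nothing is read from this count. Between the groups the levels did not overlap for 6 genes, 5 higher and 1 lower in knockouts, against 23.9% and 21.5% of all features in these directions. Without knockout replicate 1 the count of genes that passed was 8 of 9, as Gaa joined the higher and Pygb the lower genes, and 52.2% of all 18423 features then tested passed. On library totals alone all 9 genes were higher, as were 78.6% of all features, while 2.68% were lower. The median log2 fold change of the 9 genes on TMM scaling was 0.59, against -0.01 over all features tested.

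Stbd1 showed the largest difference of the 9 genes. It held 63.9, 55.3, 53.4 and 51.1 CPM in knockouts 1 to 4, against 3.64, 2.93, 3.54 and 3.34 CPM in controls 1 to 4. Every knockout library lay far above every control, and the spread within each group was small beside the distance between them. The means were 55.9 ± 5.6 CPM in knockouts and 3.36 ± 0.311 CPM in controls (SD, n = 4 each), a 16.6-fold ratio and a log2 fold change of 4.05 (SE 0.10). Behind these values stood 1621 to 1911 counts per knockout library and 56 to 69 counts per control library. The other 8 genes had 182 to 11212 counts in any library. Leaving out any 1 library gave log2 fold changes of 3.98 to 4.10 for Stbd1. The gene ranked 79 of 17891 by log2 fold change.

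Gaa, the lysosomal enzyme of the same route, differed far less. Its levels were 35.3, 41.0, 44.0 and 38.7 CPM in knockouts and 37.9, 36.9, 31.7 and 34.9 CPM in controls. The groups overlapped, because knockout replicate 1 lay among the controls while the other knockouts lay above them all. The log2 fold change was 0.17 (SE 0.08), and 0.22 without knockout replicate 1. Stbd1 per Gaa, in counts per kilobase of exon, was thus 2.61 to 3.90 in knockouts and 0.171 to 0.241 in controls, a ratio that no library scaling moves.

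**Figure D1:**
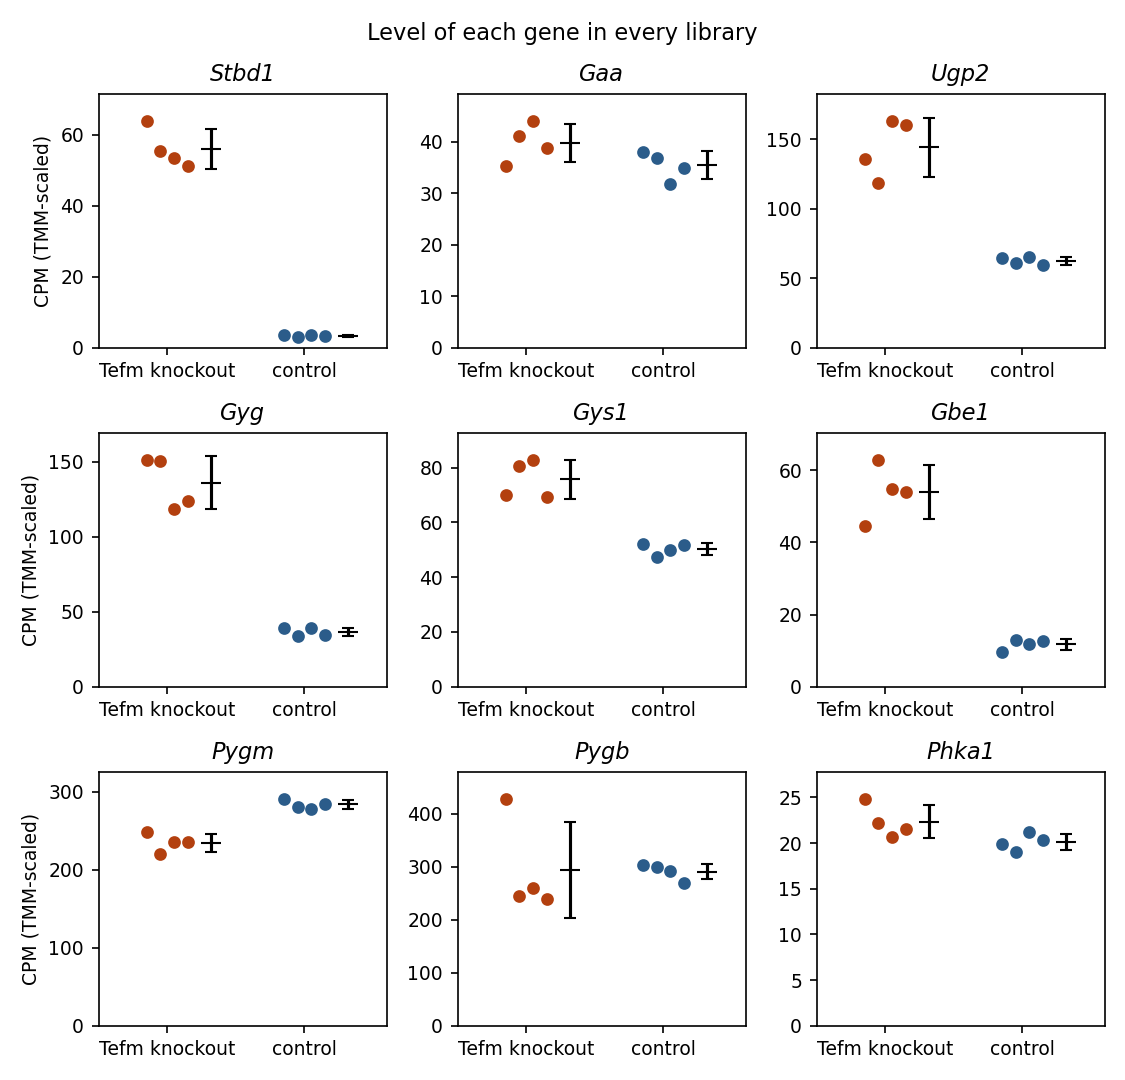
Level of the 9 genes in CPM (TMM scaling, linear axes from 0) in each of the 4 knockout libraries and the 4 control libraries, with points for libraries in replicate order and the bar for mean ± SD. Stbd1, Ugp2, Gyg, Gys1 and Gbe1 lie higher in every knockout than in any control, Pygm lies lower, and in Pygb knockout replicate 1 stands at 429 CPM above all other libraries.

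All 4 synthesis genes were higher, in unequal measure. Gbe1, the branching enzyme gene, held 44.4, 62.9, 54.8 and 53.9 CPM in knockouts and 9.59, 12.9, 11.95 and 12.8 CPM in controls. The lowest value of either group belonged to its replicate 1, and the groups lay well apart. Its means were 54.0 ± 7.57 CPM in knockouts and 11.8 ± 1.53 CPM in controls (SD, n = 4 each), and the log2 fold change was 2.19 (SE 0.12).

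Gyg, which encodes the primer protein glycogenin, held 151, 151, 118 and 124 CPM in knockouts and 38.9, 33.7, 39.0 and 34.4 CPM in controls. Knockouts 1 and 2 formed a higher pair and knockouts 3 and 4 a lower one, all above the controls. The log2 fold change was 1.90 (SE 0.10), or 3.73-fold between the mean levels.

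Ugp2, the gene of the UDP-glucose enzyme, showed the reverse order within knockouts. It held 136, 118, 164 and 160.2 CPM in knockouts and 64.3, 61.3, 65.0 and 59.4 CPM in controls. Here knockouts 3 and 4 were the higher pair, and the controls kept within a narrow band. The log2 fold change was 1.21 (SE 0.10).

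Gys1, the muscle form of glycogen synthase, had the smallest difference of the 4. It held 70.0, 80.6, 82.9 and 69.2 CPM in knockouts and 52.2, 47.3, 49.97 and 51.6 CPM in controls. The groups did not overlap, and the gap between them was wider than the range of the knockouts. The log2 fold change was 0.59 (SE 0.08). Exons of Gys1 share 310 bases, 6.47% of their length, with Ruvbl2 on the other strand, and those of Ugp2 share 78 bases (2.54%) with Gm12043. The sources used here do not say whether the counting kept strand, so reads from these stretches cannot be assigned to 1 gene. The other 7 genes share no exon base with another annotated gene.

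The start regions of the 3 genes with the largest differences are shown with that of Pygm, which was lower, so that the letters around the start sites can be compared. They are RefSeq sequences of GRCm38.p6 from 250 bases before to 50 bases after the start, written 5′ to 3′ on the gene's strand. Stbd1 lies at chr5:92602801-92603100 (plus strand), Gyg at chr3:20155067-20155366 (minus strand), Gbe1 at chr16:70313699-70313998 (plus strand) and Pygm at chr19:6384158-6384457 (plus strand). Capitals mark matches, on either strand, to GGGCGG (the GC box) or CACGTG (an E-box).
Stbd1: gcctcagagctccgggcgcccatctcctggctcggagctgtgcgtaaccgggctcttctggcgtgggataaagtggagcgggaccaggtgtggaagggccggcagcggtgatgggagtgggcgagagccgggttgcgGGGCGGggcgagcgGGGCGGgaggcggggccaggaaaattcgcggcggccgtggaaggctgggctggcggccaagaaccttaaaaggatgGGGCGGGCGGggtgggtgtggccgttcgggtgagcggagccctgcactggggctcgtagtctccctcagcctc
Gyg: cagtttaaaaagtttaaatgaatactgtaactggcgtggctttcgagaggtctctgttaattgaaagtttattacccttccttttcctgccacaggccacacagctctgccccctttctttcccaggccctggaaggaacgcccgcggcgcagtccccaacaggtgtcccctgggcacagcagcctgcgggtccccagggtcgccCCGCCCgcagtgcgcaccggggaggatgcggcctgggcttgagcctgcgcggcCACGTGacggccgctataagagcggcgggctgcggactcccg
Gbe1: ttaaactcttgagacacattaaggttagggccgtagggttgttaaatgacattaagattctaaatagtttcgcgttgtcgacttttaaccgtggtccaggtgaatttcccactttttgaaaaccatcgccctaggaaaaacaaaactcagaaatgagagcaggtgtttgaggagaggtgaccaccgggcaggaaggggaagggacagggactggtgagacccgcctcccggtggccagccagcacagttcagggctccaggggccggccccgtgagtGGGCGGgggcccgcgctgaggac
Pygm: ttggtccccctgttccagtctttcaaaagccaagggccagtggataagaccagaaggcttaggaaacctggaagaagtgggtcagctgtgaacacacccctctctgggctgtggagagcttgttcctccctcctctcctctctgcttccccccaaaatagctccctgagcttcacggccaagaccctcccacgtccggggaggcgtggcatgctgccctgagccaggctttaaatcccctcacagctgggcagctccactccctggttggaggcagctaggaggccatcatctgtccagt

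All 9 genes matched the RefSeq table, with 10 start regions because Ugp2 has a pair. Stbd1 held 4 GC boxes, of which the last pair share the bases GG, Gyg and Gbe1 held 1 each and Pygm held none. Gys1 and Phka1 held 3 each, the regions of Ugp2 held 2 and 1, and Pygb and Gaa held none. The number of GC boxes thus did not follow the size of the difference, as Phka1 was close to its control level. At least 1 GC box was found in 7 of the 10 regions, with the pair of Ugp2 among them, against 35.7% of 32851 start regions of the same length. The E-box was found in 2 of the 10, those of Gyg and Gaa, against 7.15% of all. CCAAT was found in 2 of the 10, those of Gys1 and 1 of Ugp2, against 37.4% of all. TATAAA (13.6% of all) and TGATGNAA (3.97% of all), the core of an element bound by factors of the ATF4 family, matched none of the 10. The share of G and C was 70.7% for Stbd1, 62.0% for Gyg, 54.3% for Gbe1 and 58.7% for Pygm, with a median of 52.7% over all regions. The other regions ran from 55.3% (Gaa) to 76% (Ugp2), so all 10 lay above that median. The shares of regions with a motif were not matched for this, so no enrichment is read from them. These matches describe letters in a window and no factor's binding.

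The breakdown genes did not share the differences of the synthesis genes. Pygm, the muscle phosphorylase gene with the highest mean level per kilobase of the 9, held 248, 220, 235 and 235 CPM in knockouts and 291, 281, 278 and 285 CPM in controls. All knockouts lay below all controls, by a small step. The log2 fold change was -0.28 (SE 0.07), and it turned to 0.71 on library totals.

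Pygb, the brain form, stood apart in a single library. It held 429, 245, 260 and 240 CPM in knockouts and 303, 299, 293 and 270 CPM in controls. Knockout replicate 1 lay above every other library, and the other 3 knockouts lay below every control. The mean levels were 293 ± 90.7 CPM in knockouts and 291 ± 14.8 CPM in controls (SD, n = 4 each), with a log2 fold change of 0.01 (SE 0.15) over all libraries and -0.24 without knockout replicate 1. Pygb per Pygm, in counts per kilobase, was 1.16 in knockout replicate 1, 0.682 to 0.746 in the other knockouts and 0.634 to 0.712 in controls.

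Phka1, of phosphorylase kinase, held 24.9, 22.2, 20.7 and 21.5 CPM in knockouts and 19.9, 19.0, 21.2 and 20.4 CPM in controls. The ranges overlapped, with knockout replicate 1 again the highest. The log2 fold change was 0.15 (SE 0.08), and 0.09 without that library.

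Markers of cell types moved between the groups as well, and their part in these differences was not tested. The 9 cardiomyocyte markers summed to 37599 to 48743 CPM in knockouts and 62059 to 65931 CPM in controls, and 8 of 9 were lower at an adjusted p under 0.05 in edgeR's test. Over all features 26.1% were higher and 23.9% lower. Most of the sum was Ttn, with a mean of 33380 CPM in knockouts and 45100 CPM in controls. On library totals the log2 fold changes of these markers ran from -0.82 (Ryr2) to 0.72 (Tnnt2). Knockout replicate 1 had the highest sum of the knockouts. The 8 fibroblast markers summed to 253 CPM in knockout replicate 1, 411 to 486 CPM in the other knockouts and 251 to 262 CPM in controls, and 4 of 8 were higher. Here knockout replicate 1 lay among the controls. The 8 macrophage and leukocyte markers summed to 84.0 to 122 CPM in knockouts and 115 to 166 CPM in controls, and 4 of 8 were lower. Endothelial markers summed to 324 to 353 CPM in knockouts and 365 to 381 CPM in controls, with 2 of 6 lower. Those of smooth muscle cells and pericytes summed to 478 to 525 CPM in knockouts and 527 to 549 CPM in controls, with 1 of 6 higher and 1 lower. The 3 erythroid markers stood at 730 CPM in knockout replicate 1, 135 to 258 CPM in the other knockouts and 143 to 359 CPM in controls, and 0 of 3 passed. Knockout replicate 1, the library with the high Pygb, thus also held the most erythroid transcript. Beside Pygb, named for brain, the 5 glial markers summed to 3.23 to 4.55 CPM in knockouts and 4.30 to 6.75 CPM in controls, with 1 of 4 tested lower and 1 too low to test. The 3 adipocyte markers, too low to test, summed to at most 0.202 CPM in knockouts and 0.369 CPM in controls.

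**Figure D2:**
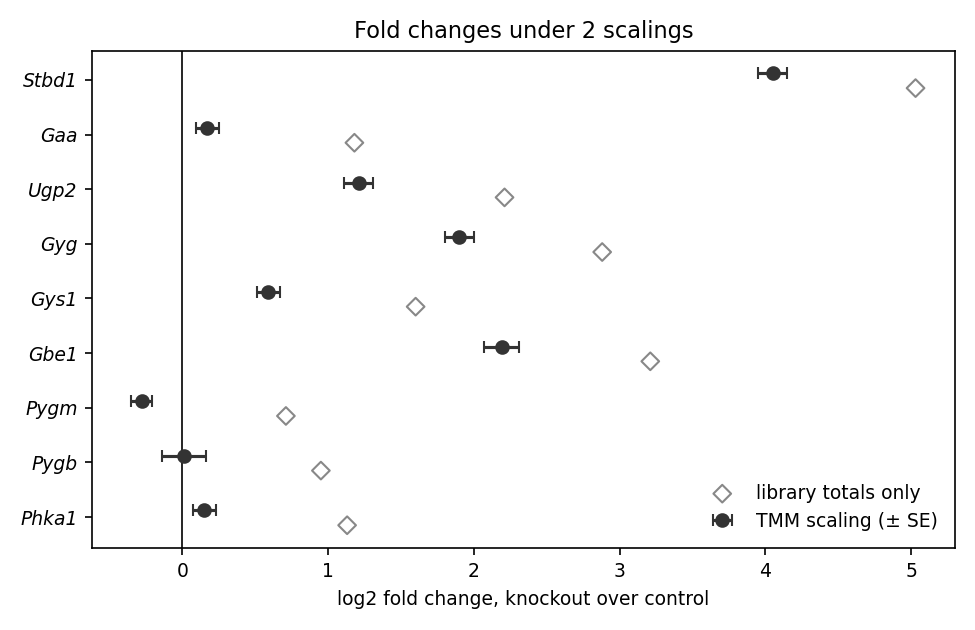
Log2 fold change of each gene, knockout over control, on TMM scaling (filled points, bars for SE) and on library totals alone (open diamonds). Library totals move every gene upwards by nearly the same step, so the order from Stbd1 (4.05 and 5.03) to Pygm (-0.28 and 0.71) is kept while the sign of Pygm turns.

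The authors' deposited table of the same comparison gave closely similar sizes. Its log2 fold changes were 4.02 for Stbd1 (SE 0.13), 2.19 for Gbe1, 1.90 for Gyg, 1.22 for Ugp2 and 0.61 for Gys1 in the authors' deposited table. The same authors' deposited table held 0.19 for Gaa, 0.16 for Phka1, 0.03 for Pygb (SE 0.16) and -0.26 for Pygm.

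Levels can be compared between the genes only per length, here as CPM per kilobase of all annotated exons. In knockouts the order was Pygm (72.8 ± 3.55), Pygb (61.0 ± 18.9), Gyg (58.1 ± 7.44), Ugp2 (47.1 ± 6.97), Stbd1 (25.2 ± 2.52), Gys1 (15.8 ± 1.48), Gbe1 (10.1 ± 1.41), Gaa (8.31 ± 0.771) and Phka1 (3.57 ± 0.288; SD, n = 4). The 4 most abundant overlapped from neighbour to neighbour, and so did Gbe1 and Gaa. In controls the order was Pygm (88.2 ± 1.72), Pygb (60.5 ± 3.07), Ugp2 (20.4 ± 0.859), Gyg (15.6 ± 1.22), Gys1 (10.5 ± 0.458), Gaa (7.39 ± 0.570), Phka1 (3.21 ± 0.146), Gbe1 (2.20 ± 0.286) and Stbd1 (1.51 ± 0.140; SD, n = 4). No neighbours overlapped in controls, so Stbd1 was the least abundant of the 9 there and at rank 5 in knockouts. When the longest transcript served as the length, Phka1 and Gbe1 overlapped in controls, at 3.29 ± 0.149 and 3.16 ± 0.409 CPM per kilobase (SD, n = 4).

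As shares of the summed counts per kilobase of the 9 genes, which no library scaling moves, phosphorylase took less in knockouts. Stbd1, Gyg, Gbe1 and Ugp2 took more there. Shares add to a fixed total, so larger shares of some genes make those of others smaller. A smaller share is therefore no measure of lost transcript, and on TMM scaling the log2 fold change was -0.28 for Pygm and 0.01 for Pygb. Pygm made up 22.8%, 23.7%, 24.8% and 25.4% in knockouts and 41.8%, 41.9%, 41.3% and 43.4% in controls. Stbd1 made up 8.01% to 8.65% in knockouts and 0.635% to 0.761% in controls, and Gyg 17.1% to 22.3% in knockouts and 6.90% to 7.93% in controls. Pygb also took less in every knockout, with 26.4% in knockout replicate 1, against 17.4% to 18.3% in the other knockouts and 27.5% to 29.9% in controls. The share of Gys1 overlapped between the groups, at 5.27% ± 0.740 in knockouts and 5.01% ± 0.224 in controls (SD, n = 4 each). The 4 synthesis genes per 4 breakdown genes (Pygm, Pygb, Phka1 and Gaa) came to a ratio of 0.742, 1.0, 0.941 and 0.965 in knockouts and 0.306, 0.291, 0.321 and 0.304 in controls. Within synthesis, the branching gene was higher relative to the synthase gene, with Gbe1 per Gys1 at 0.568 to 0.698 in knockouts and 0.164 to 0.244 in controls.

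**Figure D3:**
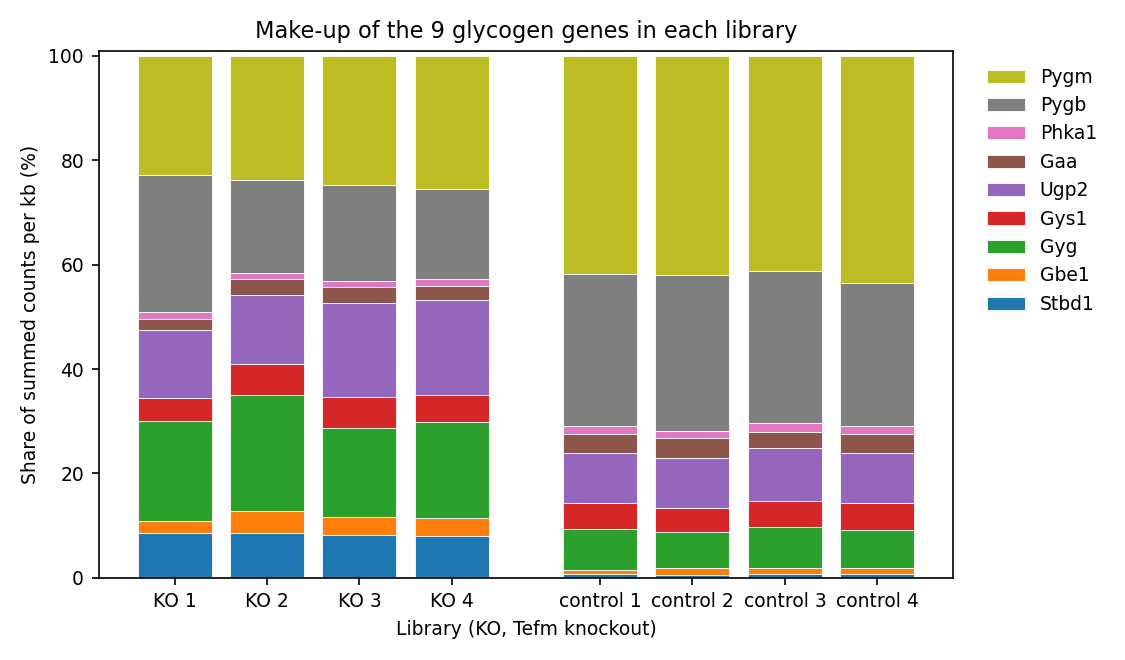
Share of each gene in the summed counts per kilobase of the 9 genes, as stacked bars adding to 100% for each knockout (KO) and control library. In knockouts the bands of Stbd1, Gbe1, Gyg and Ugp2 are wider and that of Pygm is narrower, and KO 1 keeps a wider Pygb band than the other knockouts.

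The genes whose course over the 8 libraries was most like that of Stbd1 were found by the root mean square difference of log2 CPM, centred on the control mean, among 7978 protein-coding genes with a mean of at least 5 CPM. Pmm1, a phosphomannomutase gene, was nearest at 0.23 log2 units, with 41.2 to 55.9 CPM in knockouts and 2.93 to 3.43 CPM in controls. Rasef followed at 0.28, then Map1a, a microtubule-associated protein gene, at 0.31, and Wisp2, which encodes a secreted matricellular protein, at 0.32. Their log2 fold changes ran from 3.77 (Map1a) to 4.29 (Rasef). The measure rests mainly on the size of this difference, so the other 8 glycogen genes, with smaller ones, could not come near.

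Other genes of the pathway were taken from 5 lists of 45 genes in all, of which 43 had enough counts. Of these 43, 19 were higher and 13 lower in knockouts at an adjusted p under 0.05 in edgeR's quasi-likelihood test over all features, and 11 did not pass. Over all features tested, 26.1% were higher and 23.9% lower. The median log2 fold change of the 43 was 0.18, against -0.01 over all features tested. On library totals alone, 8 of the 13 lower genes turned higher, 4 lost their call and Phkg1 stayed lower.

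Of 4 further tested genes listed with synthesis, 2 rose, 0 fell and 2 did not pass (median 0.32). Over all features 26.1% were higher and 23.9% lower. The 2 that rose were Pgm2 and Pgm5. Pgm2, named Pgm1 in RefSeq, encodes the main phosphoglucomutase, which links glucose 6-phosphate to glycogen. It held 180, 195, 185 and 204 CPM in knockouts and 63.6, 62.9, 65.6 and 64.6 CPM in controls. Both groups were tight and well apart (log2 fold change 1.57, SE 0.07, edgeR adjusted p = 8.11e-10). Pgm5, a member of the same family that acts as a structural protein, rose by 0.47 on the log2 scale (SE 0.07, edgeR adjusted p = 0.000131). Pgm2l1 (-0.19, SE 0.12) did not pass, and the liver synthase gene Gys2 held too few counts to test.

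Among the breakdown enzymes, 1 of 6 rose, 2 fell and 3 did not pass (median -0.15), a share called no larger than the 50.0% over all features. Phkg1, the catalytic subunit of phosphorylase kinase in muscle, fell the most of the 43 genes. It held 0.650, 1.27, 1.01 and 1.20 CPM in knockouts and 10.1, 13.5, 7.58 and 8.17 CPM in controls. No library came near the other group, and the log2 fold change was -3.23 (SE 0.22, edgeR adjusted p = 4.03e-08). It was also the 1 gene of the pathway lists that stayed lower and called with library totals (-2.23). Phkg2, which encodes the catalytic subunit of liver and testis, stood at 5.33 ± 0.360 CPM in knockouts and 5.30 ± 0.741 CPM in controls (SD, n = 4 each; log2 fold change 0.00, 95% interval -0.26 to 0.26). Phkg1 per Phkg2, in counts per kilobase, was 0.0683 to 0.155 in knockouts and 0.892 to 1.34 in controls.

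The liver alpha subunit gene Phka2 fell slightly (-0.48, SE 0.10, edgeR adjusted p = 0.00141), to 6.52 CPM in knockouts against 9.07 CPM in controls. The liver phosphorylase gene Pygl rose (1.72, SE 0.23, edgeR adjusted p = 3.18e-05) but stayed low, at 2.90 to 4.74 CPM in knockouts and 0.719 to 1.495 CPM in controls. Leukocytes also express Pygl, while the macrophage and leukocyte markers summed to 84.0 to 122 CPM in knockouts and 115 to 166 CPM in controls. The part of such cells in the difference of Pygl was not tested.

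Phosphatase 1 subunits, which dephosphorylate synthase and phosphorylase on the glycogen particle, went both ways. With laforin and malin, a phosphatase and a ubiquitin ligase that guard glycogen structure, 4 of 12 tested genes rose, 5 fell and 3 did not pass (median 0.03). Over all features 26.1% were higher and 23.9% lower. Ppp1r3a, the muscle glycogen-targeting subunit, held 136, 77.9, 82.9 and 87.2 CPM in knockouts and 179, 167, 193 and 185 CPM in controls. Knockout replicate 1 stood nearest the controls (-0.91, SE 0.14, edgeR adjusted p = 0.000129; -1.13 without it). Ppp1r3d, another targeting subunit, fell (-1.23, SE 0.16, edgeR adjusted p = 2.20e-05), as did the laforin gene Epm2a (-0.71, SE 0.10, edgeR adjusted p = 3.42e-05). The catalytic subunit gene Ppp1ca rose (0.52, SE 0.08, edgeR adjusted p = 0.000123), and Ppp1r3b, another targeting subunit gene, did not pass (-0.05, SE 0.15). Ppp1r3c, the targeting subunit PTG, was chosen after its value was seen and rose to 162 ± 24.1 CPM in knockouts, against 100.3 ± 16.4 CPM in controls (SD, n = 4 each; 0.69, SE 0.12, edgeR adjusted p = 0.000415). The other calls, likewise named after the fact, were higher for Ppp1r3e and Ppp1cb and lower for the malin gene Nhlrc1 and for Epm2aip1. Of these, the calls of Nhlrc1 and Epm2aip1 were lost without knockout replicate 2, which left 3 genes lower. That of Nhlrc1 was also lost without control replicate 1 or 3, and that of Epm2aip1 without knockout replicate 3 or with no filter. The call of Ppp1cb was lost without any 1 of the controls or knockout replicate 4. With library totals Epm2a stood at 0.28, Ppp1r3a at 0.03 and Ppp1r3d at -0.27.

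Kinases that phosphorylate glycogen synthase, GSK3 and the AMP-activated kinase (AMPK), gave 4 higher, 3 lower and 2 not passing of 9 (median 0.18), beside 26.1% higher and 23.9% lower over all features. DESeq2 gave 3 higher and 2 lower, without Prkaa1 and Prkag1. Prkab2, the AMPK beta subunit of muscle, whose carbohydrate-binding module attaches to glycogen, held 90.6, 90.4, 132 and 104 CPM in knockouts and 36.2, 37.2, 40.9 and 37.0 CPM in controls. It rose in every knockout, with replicate 3 highest (1.47, SE 0.11, edgeR adjusted p = 1.55e-07). Its paralog Prkab1 fell (-0.42, SE 0.09, edgeR adjusted p = 0.00195, but 0.56 with library totals), as did the gamma subunit gene Prkag3, with 0.984 ± 0.185 CPM in knockouts and 2.11 ± 0.358 CPM in controls (SD, n = 4 each; -1.10, SE 0.21, edgeR adjusted p = 0.000519). Gsk3b rose (0.38, SE 0.08, edgeR adjusted p = 0.000919) and Gsk3a did not pass (-0.03, SE 0.08). The catalytic subunit genes Prkaa1 (0.23) and Prkaa2 (0.18), chosen after their values were seen, passed over all libraries but lost their calls without knockout replicate 2 or 3 or any 1 of the controls. Without any 1 of these libraries 2 of the 9 kinase genes were higher. Prkaa1 lost its call without knockout replicate 4 as well, and Prkaa2 with a replicate block. Prkag1 (-0.23), also named after the fact, lost its call without any 1 of 6 libraries, those other than knockout replicate 1 and control replicate 4. The same happened to Prkag1 with no filter and with a replicate block.

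Autophagy and lysosome genes, listed for the delivery of glycogen to lysosomes, gave 8 of 12 higher, 3 lower and 1 not passing (median 0.33). Over all features 26.1% were higher and 23.9% lower. Sqstm1, an autophagy receptor, held 475, 646, 558 and 575 CPM in knockouts and 102, 103, 95.3 and 92.4 CPM in controls. The lowest knockout, replicate 1, still lay far above the controls (2.52, SE 0.10, edgeR adjusted p = 3.15e-10). Gabarapl1, whose protein binds STBD1, held 63.2, 61.1, 72.0 and 68.9 CPM in knockouts and 28.6, 27.1, 25.5 and 24.8 CPM in controls. All knockouts lay above all controls, with no library apart from its group (1.32, SE 0.08, edgeR adjusted p = 1.19e-08). The related Gabarap rose as well (0.62, SE 0.07, edgeR adjusted p = 5.90e-06), and so did Lamp2, a lysosomal membrane protein gene (0.36, SE 0.07, edgeR adjusted p = 0.000417). Igf2r, which encodes a receptor that delivers acid alpha-glucosidase to lysosomes, did not pass (0.10, SE 0.08). The 3 that fell, named after their values were seen, were the LC3 genes Map1lc3a (-0.27) and Map1lc3b (-0.44) and Tfeb (-0.39), which encodes a regulator of lysosomal genes, and they stood at 0.72, 0.53 and 0.60 with library totals. Gabarap and Gabarapl1 thus rose while the related LC3 genes fell on TMM scaling, and all 4 were higher on library totals. Of the 8 that rose, Gabarapl2, named after its value was seen, lost its call in DESeq2 and without knockout replicate 1 or 2 or any 1 of the controls, and M6pr, likewise, without control replicate 1.

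**Figure D4:**
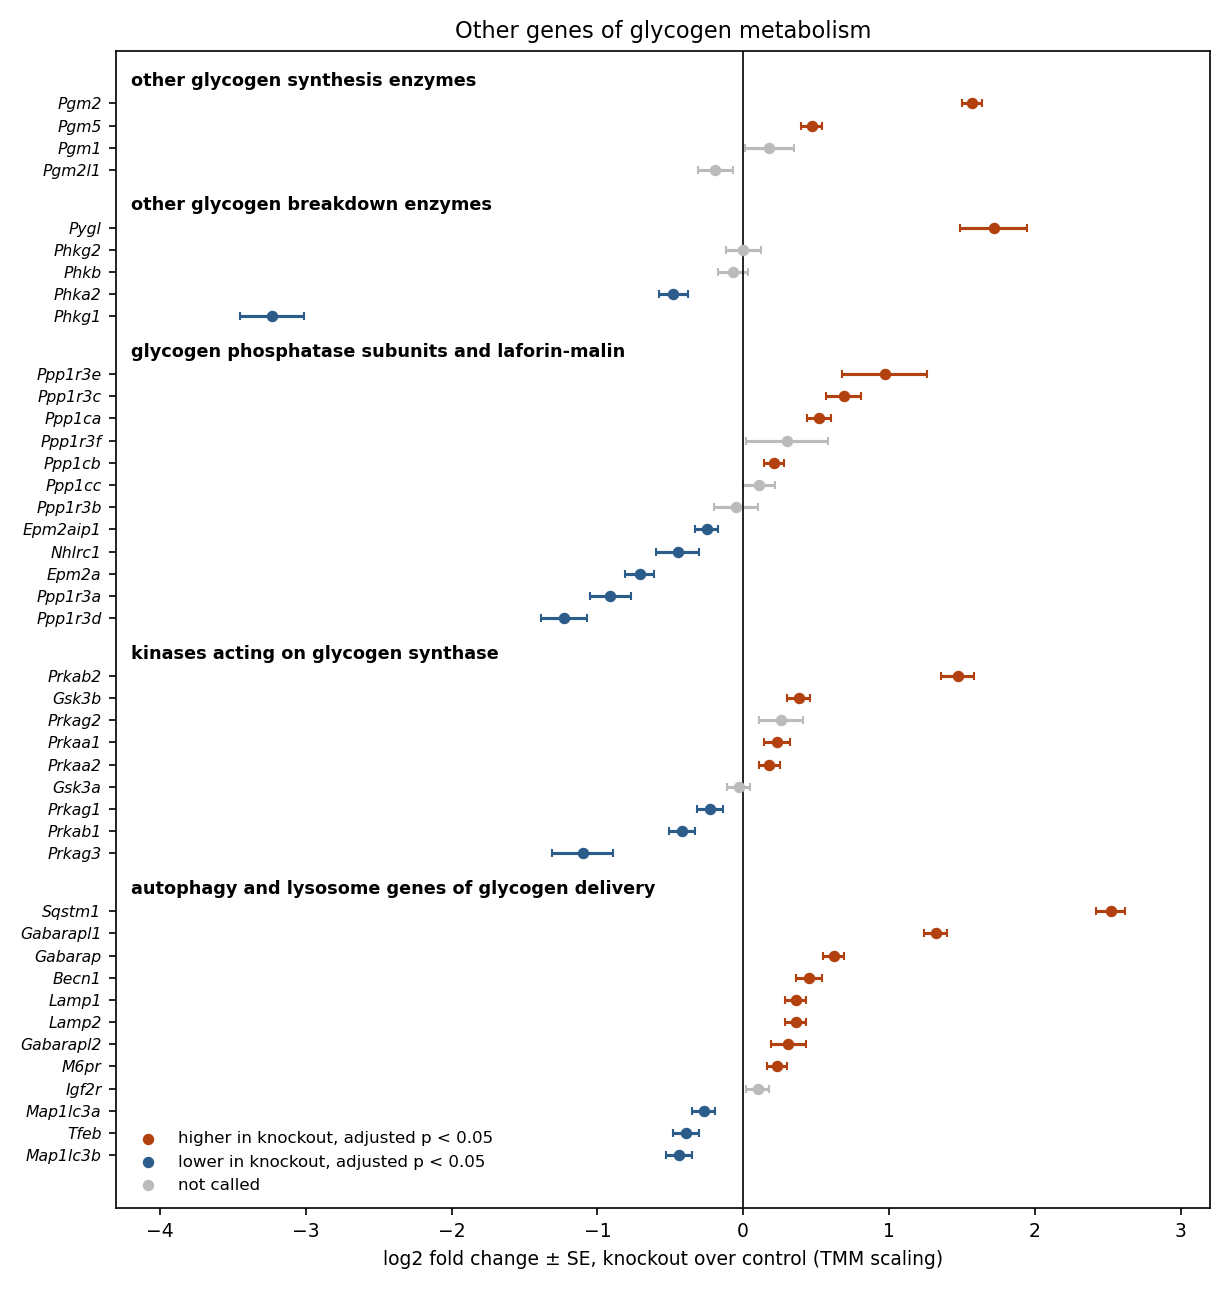
Log2 fold change ± SE, knockout over control on TMM scaling, of 42 of the 43 tested genes in 5 pathway lists, coloured by edgeR's call at an adjusted p under 0.05. Phkg1 lies at -3.23 apart from all others, and Sqstm1 (2.52), Pygl (1.72), Pgm2 (1.57), Prkab2 (1.47) and Gabarapl1 (1.32) lie farthest to the right.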

How the data were processed

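Total RNA of crude heart mitochondria from 4 knockout and 4 control mice was extracted with a miRNeasy kit and sequenced as paired-end TruSeq libraries on a MiSeq, per the labels' protocols. The files were deposited as raw counts per gene for each library. Bowtie2, SAMtools 1.3.1, bedtools, featureCounts, R 3.3.2, DESeq2 1.14.1 and mm10 are named in the submitters' processing notes, without a role. The sources used here do not give the strand setting or whether ribosomal RNA was removed. The authors also deposited a table of log2 fold changes and p-values for the same comparison, of which the log2 fold changes and their errors are printed where named. Their normalised counts were not used.

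Counts were tested with edgeR 4.0.16 (R 4.3.3, limma 3.58.1): scaling by TMM, a filterByExpr minimum of 10 counts, the quasi-likelihood test and Benjamini-Hochberg adjustment at 0.05 over 17891 features, with all 8 libraries and no covariate. The biological coefficient of variation was 11.3%. The procedure was tested on data simulated from control means, where 68% of genes changed 1.5-fold and 98% of those changed 2-fold were recovered. That simulation set no difference in mtDNA share and few changed genes, so it does not check the scaling. The group of each library came from its title and genotype label, and the animals were separate mice. The 9 genes and all lists were chosen with earlier results of these data known. Pathway genes were named by a fixed rule: in each list up to 4 passing genes with the smallest adjusted p, plus the gene with the highest mean CPM among those that did not pass; others are marked as chosen after their values were seen. A few genes that a rule or list names are not reported here. Gene lengths are unions of exons in GENCODE vM21 (GRCm38), and start regions come from RefSeq. Alternatives were DESeq2 1.42.0, its size factors, library totals alone, nuclear genes alone, no filter, a replicate block and leaving out each library in turn. Same-numbered libraries showed correlations of deviations of -0.0136 to 0.0497, so no deviation shared by number was seen and the samples were treated as unpaired. This does not exclude a pairing.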

Additional observations from a re-analysis of the deposited data

Results flagged for a closer look

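In each group of 4 libraries the highest or lowest value was compared with the nearest of the others, and 5 of 78 groups, all of knockouts, held a value whose gap over the group's range exceeded Dixon's 95% critical value. Chance alone flags about 1 in 20 groups. Pygb stood at 429 CPM in knockout replicate 1, against 240 to 260 CPM in the other knockouts (gap 0.893 of the range). Ppp1r3a stood at 136 CPM in knockout replicate 1, against 77.9 to 87.2 CPM in the others (0.840). Prkag3 stood at 1.26 CPM in knockout replicate 1, against 0.882 to 0.897 CPM in the others (0.961), and Igf2r at 134 CPM, against 112 to 115 CPM (0.893). Epm2a was low in knockout replicate 2, at 11 CPM against 14.5 to 15 CPM in the others (0.885). In 4 of the 5 the library that stood apart was knockout replicate 1, which also held the highest mtDNA share of the knockouts, 59.3%.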

How the results depend on the processing

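Stbd1, Gbe1, Gyg, Ugp2 and Gys1 kept their direction and their side of the threshold in all 14 alternatives. Pygm did so except on library totals alone, where it turned to 0.71. Gaa and Pygb passed on library totals and without knockout replicate 1, and Phka1 on library totals. The 9 genes were chosen from this contrast and the alternatives use the same libraries, so nothing is read from these passes. Log2 fold changes on library totals lay a median of 0.99 above those on TMM scaling. Library totals gave 14066 features higher and 480 lower, against 4669 and 4274 on TMM scaling. They also gave 4 synthesis genes higher, 5 breakdown genes higher and 1 lower, 9 phosphatase genes higher and 0 lower, 8 kinase genes higher and 0 lower, and 0 autophagy genes lower. Phka2 turned to 0.52, Epm2a to 0.28, Ppp1r3a to 0.03 and Prkab1 to 0.56 there. Leaving out each library gave 4307 to 4909 features higher and 3818 to 4716 lower, 3 to 5 phosphatase genes lower and 2 to 4 kinase genes higher. No deviation shared by replicate number was seen, and a replicate block gave 4580 higher and 4253 lower. DESeq2 gave 4589 higher and 3964 lower. The control level of Stbd1 rests on 56 to 69 counts per library, and its log2 fold change stood at 5.03 on library totals, against 4.05 on TMM scaling.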
